A study of Mus musculus with 24 samples.

Results

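Expression of 7 genes of the Myc and Max network (Myc, Mycn, Max, Mxd1, Mxd4, Mxi1 and Mnt) was examined in mouse cardiomyocytes that carried or lacked topoisomerase IIβ, after injection of doxorubicin or of phosphate-buffered saline (PBS). The members were taken by gene name: 9 of the 55681 probes on the array carried one of these names, against 34844 gene names in all. Mice were 6 weeks old, labelled male, on a mixed 129SvEv/C57BL/6 background, and either wild type or Top2b-/- through deletion in the heart. The sources used here do not name the Cre line. Each mouse received an intraperitoneal injection of doxorubicin at 25 mg/kg or of PBS, hearts were taken 16 h or 72 h later, and live cardiomyocytes were isolated by Langendorff perfusion for 1-colour Agilent arrays. The 8 groups of genotype, treatment and time held 3 arrays each, 24 in all. The labels do not tie arrays to separate animals, and each p-value therefore reflects only how these samples vary, which may be technical.

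Myc and its paralog Mycn are basic helix-loop-helix leucine zipper transcription factors that bind the E-box CACGTG as heterodimers with Max and activate genes of ribosome production, metabolism and cell division. Mxd1, Mxd4, Mxi1 and Mnt compete with Myc for Max, bind the same E-box and recruit Sin3 and histone deacetylase corepressors. In the adult heart Myc is low and is induced by stress such as pressure overload or ischaemia. Doxorubicin is an anthracycline that traps topoisomerase II on DNA, and topoisomerase IIβ is the form present in non-dividing cardiomyocytes.

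The E-box was looked for in the promoters of the network's own genes, since these proteins bind it. The RefSeq promoter windows (build GRCm38.p6, 250 bases before to 50 after each gene's start) covered 6 of the 7 members. CACGTG, which reads the same on both strands, was found once each in Mxd4, Mnt and Max and in none of the windows of Mycn, Mxd1 and Mxi1. Of all 27025 genes with a window, 8.09% held it, as did 7.15% of all 32851 windows. A match describes these letters and is not a measured binding site. The windows of the 3 genes that held it are shown from their first base to the third base after the start, 253 bases each, 5′ to 3′ with the E-box in capitals. In Mxd4 the E-box began at position -219 relative to the start, in Mnt at position -123, and in Max at position -3, so that it spanned the start.
Mxd4 (chr5:34187708-34187960, minus strand): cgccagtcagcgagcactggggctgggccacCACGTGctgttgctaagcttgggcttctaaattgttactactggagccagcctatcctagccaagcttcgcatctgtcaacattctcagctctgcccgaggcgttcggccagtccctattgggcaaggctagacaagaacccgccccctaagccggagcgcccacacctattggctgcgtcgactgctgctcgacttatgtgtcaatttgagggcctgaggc
Mnt (chr11:74830674-74830926, plus strand): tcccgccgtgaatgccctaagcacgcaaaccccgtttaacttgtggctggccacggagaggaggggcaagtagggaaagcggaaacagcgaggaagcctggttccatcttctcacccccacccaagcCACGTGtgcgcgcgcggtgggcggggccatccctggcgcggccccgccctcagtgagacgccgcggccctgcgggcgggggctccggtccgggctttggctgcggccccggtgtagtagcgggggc
Max (chr12:76962246-76962498, minus strand): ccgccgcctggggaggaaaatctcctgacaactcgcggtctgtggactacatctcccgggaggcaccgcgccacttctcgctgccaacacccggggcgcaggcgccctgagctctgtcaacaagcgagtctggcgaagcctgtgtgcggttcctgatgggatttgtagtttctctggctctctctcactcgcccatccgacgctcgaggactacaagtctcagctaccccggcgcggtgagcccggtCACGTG

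All values below are log2 levels: the processed signal of a probe relative to the 75th percentile of its array, so that 0 is the 75th percentile itself. Differences between groups are on the same log2 scale, with the standard error (SE) and the Benjamini-Hochberg adjusted p of limma's fit across all genes, and a difference was called at an adjusted p under 0.05. A probe counted as measured on an array where the scanner flagged it as well above background. Levels are compared within a probe and within a time, because the 2 times were run on different slides.

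The arrays were checked against their labels first. All 7 cardiomyocyte markers, such as Myh6 and Tnnt2, were well above background on every array. The Top2b probe read 2.54 to 3.34 on the 6 arrays labelled Top2b-deleted at 16 h against 4.03 to 4.39 on the 6 wild-type arrays, and 2.13 to 3.07 against 3.25 to 3.65 at 72 h, with no overlap under the genotype in the titles. For 4 arrays at 16 h (replicate 3 of each PBS group and replicate 1 of each doxorubicin group) another label field gave the other genotype, and the titles were used. The Y-linked transcript Ddx3y was well above background on 7 of the 24 arrays, although every sample is labelled male. At 16 h these were all 3 of wild-type PBS, 0 of Top2b-deleted PBS and replicate 1 of each doxorubicin group. Replicates 2 and 3 of wild-type doxorubicin lacked it, so the wild-type doxorubicin and PBS arrays at 16 h also differed in it. At 16 h all 6 wild-type arrays shared 1 slide with Top2b-deleted PBS replicates 1 and 2, and the other Top2b-deleted arrays were on a second slide.

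In wild-type cardiomyocytes 16 h after doxorubicin, the 4 members called were Myc, Max and Mxd4, which rose, and Mycn, which fell. These were 4 of the 6 members tested, where 27.8% of all 18751 genes tested were called. Mycn was tested only because it was above background in the PBS groups, so its call is not independent of that filter. In Top2b-deleted cardiomyocytes 0 of 6 were called by limma, where 0% of all genes were. There 2 (Mycn and Mxd1) had an unadjusted p under 0.05, as had 4.22% of all genes. The difference between the genotypes' responses was called for 2 of 6 members, Myc and Mxd4, where 11.4% of all genes were. Grouped by that other label field instead of the title, 0 members and 0 genes were called in the wild-type comparison (adjusted p 0.332 to 0.545 for the same 4 members) or for the difference. The plot of levels by array shows these members array by array.

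**Figure D1:**
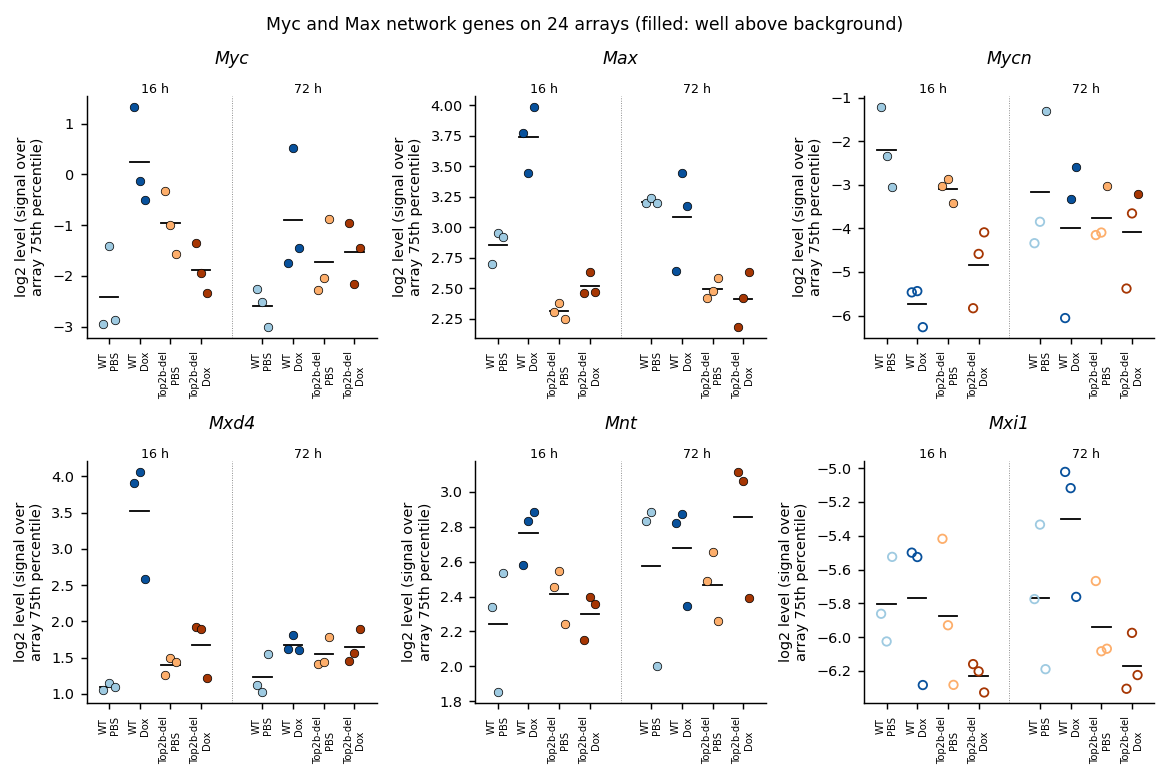
Log2 level (signal over the array's 75th percentile) of 6 network genes on each of the 24 arrays, grouped by genotype and treatment at 16 h and 72 h. Filled points are well above background, open points are not, and bars are group means of 3 arrays. Myc, Max and Mxd4 sit highest in wild-type doxorubicin at 16 h, Mycn leaves the measured range there, and Mxi1 is not above background on any array.

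Myc, the activating partner of Max, was read by 1 probe (chr15:61821417-61821476, mm9, plus strand, 2 spots), above background on all 24 arrays. At 16 h its levels were -2.95, -1.41 and -2.88 in wild-type PBS and 1.33, -0.12 and -0.51 in wild-type doxorubicin. Every treated wild-type array was above every wild-type PBS array. In Top2b-deleted cells they were -0.32, -0.99 and -1.57 with PBS and -1.36, -1.94 and -2.35 with doxorubicin. These 2 groups overlapped, and both lay between the 2 wild-type means. The means at 16 h were, from high to low, 0.24 ± 0.97 (SD, n = 3) in wild-type doxorubicin, -0.96 ± 0.63 in Top2b-deleted PBS, -1.88 ± 0.50 in Top2b-deleted doxorubicin and -2.41 ± 0.87 in wild-type PBS. Each pair of neighbours in this order had overlapping arrays.

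Doxorubicin raised Myc in wild-type cells by 2.65 ± 0.55 (SE), a 6.26-fold change (limma adjusted p = 0.00586). With the normexp background correction it was 1.53 (adjusted p = 0.00713). In Top2b-deleted cells the doxorubicin difference was -0.92 ± 0.55 (adjusted p = 1). The responses differed by -3.57 ± 0.78 between the genotypes (adjusted p = 0.0186). Over 20 alternatives its adjusted p ran from 0.00612 to 0.999, the highest when grouped by the other genotype label. The call was lost in 4 of them. Besides that grouping, these were a slide term (-2.96, adjusted p = 0.15) and leaving out Top2b-deleted PBS replicate 1 (adjusted p = 0.0511) or Top2b-deleted doxorubicin replicate 3 (adjusted p = 0.0525). With PBS, Myc was 1.45 ± 0.55 higher in Top2b-deleted than in wild-type cells, which did not pass (adjusted p = 0.115). It passed with a covariate for the Y-linked transcripts (2.67, adjusted p = 0.0315), so this call depends on that term.

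Mycn, the paralog of Myc, moved the other way. Its probe (chr12:12943193-12943252, mm9, minus strand) was above background on 11 of 24 arrays. At 16 h it read -1.20, -2.33 and -3.04 in wild-type PBS and -5.47, -5.44 and -6.27 in wild-type doxorubicin, none of the latter well above background. It read -3.03, -2.85 and -3.41 in Top2b-deleted PBS and -5.83, -4.59 and -4.09 in Top2b-deleted doxorubicin, again none of the latter above background. Mycn was therefore measurable on all 6 PBS arrays and on none of the 6 doxorubicin arrays, in either genotype. Against the lowest measurable signal of each array, Mycn was at least 2.79-fold lower with doxorubicin in wild-type cells, where limma gave an adjusted p of 0.000873. Mycn entered the 16 h tests only through the PBS groups, where it was high, so its p-values are not independent of the filter. The fitted difference was -3.53, and -0.79 with the normexp correction. The same bound in Top2b-deleted cells was at least 1.87-fold lower, with an adjusted p of 1 and an unadjusted p of 0.0062. The difference between the genotypes' Mycn responses did not pass (1.80 ± 0.72, adjusted p = 0.131), and it sets readings below background against each other.

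Max, the partner that Myc and the Mxd proteins share, was read by 1 probe (chr12:78038272-78038331, mm9, minus strand), above background on every array. Its 16 h levels were 2.70, 2.95 and 2.92 in wild-type PBS and 3.78, 3.44 and 3.99 in wild-type doxorubicin. In Top2b-deleted cells they were 2.31, 2.38 and 2.25 with PBS and 2.46, 2.64 and 2.47 with doxorubicin. The 4 groups did not overlap and ran from wild-type doxorubicin at the top through wild-type PBS and Top2b-deleted doxorubicin to Top2b-deleted PBS. Doxorubicin raised Max in wild-type cells by 0.88 ± 0.14, or 1.84-fold (limma adjusted p = 0.00176). In Top2b-deleted cells the difference was 0.21 ± 0.14 (adjusted p = 1), and the difference between the genotypes was -0.67 ± 0.20 (adjusted p = 0.0594), past the threshold in 2 of the 20 alternatives tried. Max was the 1 member of 6 called between the genotypes with PBS at 16 h, where 12.5% of all genes were called: Top2b-deleted cells differed by -0.55 ± 0.14 (adjusted p = 0.0343). That call was lost in 13 of 15 alternatives (adjusted p 0.0125 to 1 over the 15), including each that left out 1 array.

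Mxd4, a Max-binding repressor of the Mxd family, was read by 2 probes that overlap by 13 bases (chr5:34519323-34519382 and chr5:34519276-34519335, mm9, minus strand). On the brighter probe the 16 h levels were 1.05, 1.15 and 1.09 in wild-type PBS and 3.92, 4.06 and 2.58 in wild-type doxorubicin. They were 1.25, 1.49 and 1.44 in Top2b-deleted PBS and 1.92, 1.90 and 1.21 in Top2b-deleted doxorubicin. The 3 treated wild-type arrays stood above the other 9. Doxorubicin raised Mxd4 in wild-type cells by 2.42 ± 0.34, or 5.36-fold (limma adjusted p = 0.000765), against 0.28 ± 0.34 in Top2b-deleted cells (adjusted p = 1). The difference between the genotypes was -2.14 ± 0.48 (adjusted p = 0.0201). Over 20 alternatives its adjusted p ran from 0.000292 to 0.999, the highest when grouped by the other genotype label. The call was lost in 4 of them. Besides that grouping, these were a slide term (-2.19, adjusted p = 0.114) and leaving out Top2b-deleted PBS replicate 2 (adjusted p = 0.0554) or Top2b-deleted doxorubicin replicate 3 (adjusted p = 0.0537).

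The dimmer Mxd4 probe moved in the same direction by less. With every probe fitted on its own, 27.6% of probes were called in wild-type cells at 16 h, and this probe rose by 0.98 ± 0.25 (adjusted p = 0.016). Its difference between the genotypes was -1.29 ± 0.36 (adjusted p = 0.0424), where 11.2% of probes were called.

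Mxd1, the founding repressor of the family, was read by 2 probes that start 1863 bases apart in the genome and disagree. The probe nearer the 3′ end (chr6:86597190-86597249, mm9, minus strand) lay between -0.71 and 0.27 on all 24 arrays. None of its 8 contrasts within a time, nor the difference between the times, passed. The probe nearer the 5′ end (chr6:86599053-86599112) was the brighter of the pair over all arrays and therefore stood for the gene in the fit. In wild-type PBS it was the dimmer one (mean -0.85 against -0.42 at 16 h and -0.68 against -0.05 at 72 h), so the choice of probe rests on the Top2b-deleted arrays and is not independent of the genotype difference. At 16 h it read -0.78, -0.85 and -0.91 in wild-type PBS and 0.59, -0.46 and -0.31 in wild-type doxorubicin. It read 1.61, -0.67 and 1.42 in Top2b-deleted PBS and 1.82, 4.18 and 2.97 in Top2b-deleted doxorubicin. At 72 h it read -0.59, -0.58 and -0.89, then -0.26, 0.07 and -0.41, in the 2 wild-type groups. It read 1.85, 1.29 and 0.99, then 3.40, 3.25 and 1.36, in the 2 Top2b-deleted groups. At 72 h every Top2b-deleted array was above every wild-type array on this probe, and at 16 h all but the -0.67 of PBS replicate 2 were.

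On the 5′ probe, Mxd1 was 2.06 ± 0.46 higher in Top2b-deleted than in wild-type cells with PBS at 72 h (limma adjusted p = 0.0489), the 1 member of 5 called there, where 2.15% of all genes were. The call was lost in 10 of 14 alternatives, whose adjusted p ran from 0.00391 to 0.184. The 3′ probe gave -0.03 ± 0.20 for the same comparison (adjusted p = 0.983 over all probes, 2.25% of which were called). The doxorubicin difference on the 5′ probe in Top2b-deleted cells at 16 h was 2.20 ± 0.66, with an unadjusted p of 0.0069 and an adjusted p of 1. On the 3′ probe it was 0.38 ± 0.21, in the same direction and without overlap of the arrays (limma unadjusted p = 0.097). A statement on Mxd1 as a gene therefore depends on which probe is read, as the plot of probe pairs shows.

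**Figure D2:**
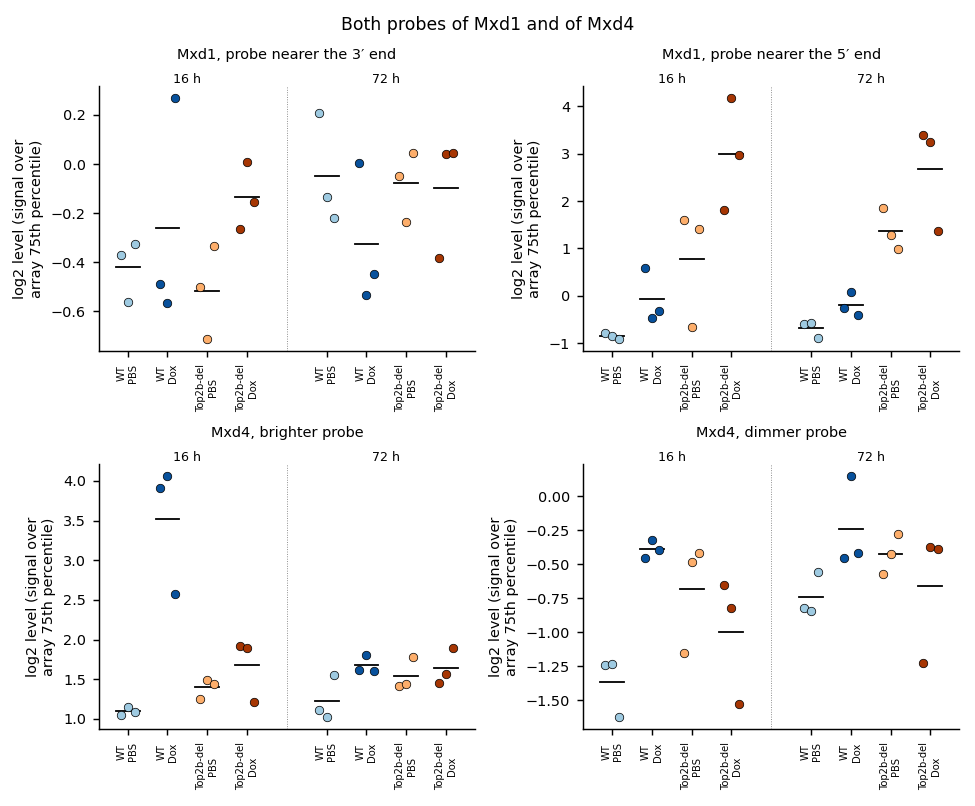
Log2 level of both probes of Mxd1 and of Mxd4 on the 24 arrays, with group means of 3 arrays as bars. Each panel has its own vertical axis. The 5′ probe of Mxd1 separates the genotypes at 72 h, and at 16 h except for 1 Top2b-deleted PBS array. The 3′ probe stays between -0.71 and 0.27. Both Mxd4 probes are higher in wild-type doxorubicin than in wild-type PBS at 16 h.

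Mnt, a broadly expressed Max-binding repressor, was read by 1 probe (chr11:74658915-74658974, mm9, plus strand), above background on every array. At 16 h it read 2.34, 1.85 and 2.53 in wild-type PBS and 2.58, 2.84 and 2.89 in wild-type doxorubicin, which did not overlap. It read 2.46, 2.55 and 2.24 in Top2b-deleted PBS and 2.15, 2.40 and 2.36 in Top2b-deleted doxorubicin, which did. The wild-type difference of 0.52 ± 0.18 just missed the threshold (limma adjusted p = 0.0507) and passed with normexp (adjusted p = 0.0285), with quantile normalization (adjusted p = 0.0485) and without wild-type PBS replicate 3 (adjusted p = 0.0298) or wild-type doxorubicin replicate 1 (adjusted p = 0.0355), that is, in 4 of 15 alternatives. Mxi1, another repressor of the family, was not well above background on any of the 24 arrays on its 1 probe (chr19:53450238-53450297, mm9, plus strand), and was not tested.

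**Figure D3:**
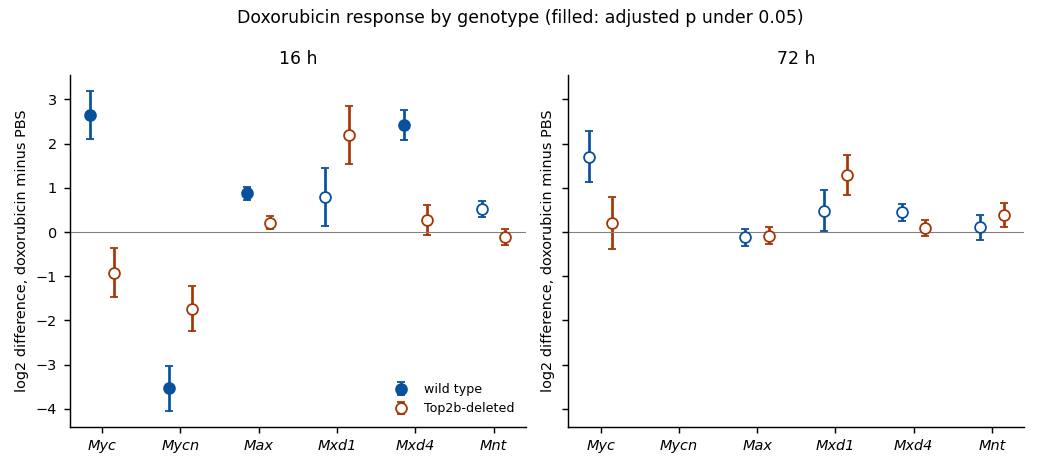
Doxorubicin minus PBS (log2 difference, error bars are the SE of the fit on 3 arrays per group) for each tested member at 16 h and 72 h, in wild-type (blue) and Top2b-deleted (brown) cells; filled points passed an adjusted p under 0.05. At 16 h the wild-type values of Myc (2.65), Mxd4 (2.42), Max (0.88) and Mycn (-3.53) are filled, and no point is filled at 72 h; treated Mycn readings lie below background, Mycn was not tested at 72 h, and Mxd1 is its 5′ probe.

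At 72 h no doxorubicin comparison called a member. In wild-type cells 0 of 5 members passed limma's threshold, where 2.69% of 19670 genes did, and 2 (Myc and Mxd4) had an unadjusted p under 0.05, as had 24.3% of all genes. Myc read -2.26, -2.52 and -3.01 with PBS and -1.75, 0.53 and -1.44 with doxorubicin. The 3 treated arrays were again above the 3 PBS arrays, with 1 of them far above the other two, and the difference of 1.71 ± 0.58 did not pass (adjusted p = 0.113). In Top2b-deleted cells Myc read -2.27, -2.05 and -0.89 with PBS and -0.96, -2.17 and -1.45 with doxorubicin, which overlapped. There limma called 0 of 5 members, where it called 0% of all genes. An unadjusted p under 0.05 was seen for 1 member (the 5′ probe of Mxd1) and for 2.18% of all genes. The difference between the genotypes' 72 h responses was called for 0 members and 0% of genes. None of the 5 members had an unadjusted p under 0.05 for it, against 7.06% of all genes.

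Mxd4 at 72 h read 1.12, 1.02 and 1.55 with PBS and 1.62, 1.81 and 1.60 with doxorubicin in wild-type cells, a difference of 0.45 ± 0.19 (adjusted p = 0.172). The Top2b-deleted groups overlapped, at 1.42, 1.44 and 1.78 with PBS and 1.45, 1.57 and 1.90 with doxorubicin. The wild-type response of Mxd4 was smaller at 72 h than at 16 h by -1.98 ± 0.40 (limma adjusted p = 0.00764) on the brighter probe. The dimmer Mxd4 probe gave -0.47 ± 0.36 for the same contrast, which did not pass (adjusted p = 0.498). Max read 3.20, 3.24 and 3.20 with PBS and 2.64, 3.44 and 3.18 with doxorubicin in wild-type cells, which overlapped. Its wild-type response changed by -1.0 ± 0.24 between the times (adjusted p = 0.0219). The call was lost in 3 of 20 alternatives. These were leaving out wild-type PBS replicate 1 of 16 h (-0.92, adjusted p = 0.0626), no filter on dim probes (adjusted p = 0.053) and grouping by the other genotype label (adjusted p = 0.705). Mxd4 and Max were the 2 members of 6 whose response differed between the times, where 5.6% of 20049 genes did. For Myc that difference was -0.94 ± 0.85 (adjusted p = 0.567), so a change of its response over time was not detectable with 3 arrays a group.

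Max levels at 72 h were again lower in both Top2b-deleted groups than on every wild-type array, without overlap. Top2b-deleted cells read 2.42, 2.48 and 2.58 with PBS and 2.18, 2.42 and 2.64 with doxorubicin. With PBS the difference was -0.72 ± 0.20 and did not pass (adjusted p = 0.106). Mycn at 72 h was above background on 1 of 3 wild-type PBS, 2 of 3 wild-type doxorubicin and 1 of 3 arrays of each Top2b-deleted group, and was not tested. Its readings ran from -6.06 to -1.31, with every group overlapping. Mnt had overlapping treated and PBS groups in both genotypes at 72 h, with differences of 0.11 ± 0.28 and 0.39 ± 0.28.

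Levels of other cell types' markers moved with some of these comparisons. The summed level of 6 smooth muscle and pericyte markers (the log2 of their summed relative signals) was 6.30 to 6.68 in wild-type PBS and 4.81 to 5.11 in wild-type doxorubicin at 16 h, against 6.49 to 6.78 and 6.19 to 7.03 in the Top2b-deleted groups. All 6 were detected on every array. These sums are set mostly by Acta2, whose mean level was 5.65 at 16 h, with Tagln next at 3.27. In wild-type doxorubicin at 16 h limma called 4 of the 6 lower, Acta2 by 2.30 among them, where 14.1% of all genes were. Rgs5 (-0.02, adjusted p = 0.974) and Pdgfrb (-0.445, adjusted p = 0.315) did not pass. Of 7 neutrophil markers, 2 to 3 were detected in wild-type PBS and 4 in wild-type doxorubicin at 16 h (summed level 6.33 to 6.37 and 6.06 to 6.64), and 2 to 4 and 6 at 72 h (6.71 to 7.95 and 7.0 to 7.85). These sums are set by Csf3r, whose mean level was 6.26 at 16 h and 7.42 at 72 h and whose difference did not pass at either time. In wild-type doxorubicin limma called Ly6g (1.85 ± 0.29, adjusted p = 0.00141), S100a8 and S100a9 higher at 16 h (adjusted p = 0.00164 and 0.00223), and S100a8, S100a9 and Retnlg at 72 h (adjusted p = 0.0128, 0.0181 and 0.0304). These were 3 of 4 tested at 16 h and 3 of 6 at 72 h, where 13.7% and 0.946% of all genes were higher. S100a8 at both times, and Retnlg at 72 h, were well above background on only 3 of 12 arrays. They entered the tests only through the 1 group where they were high, so their p-values are not independent of that filter. Ngp was not detected on any array. Of 6 fibroblast markers tested 4 were called lower in wild-type doxorubicin at 16 h, where 14.1% of all genes were. The summed levels of all 7 listed overlapped (4.53 to 5.09 and 4.43 to 5.62). Of 7 endothelial markers 2 were called lower in the same comparison, and their summed levels also overlapped (5.35 to 5.93 and 5.40 to 6.03). At 72 h in wild-type doxorubicin 0 of 7 endothelial markers were called, with a median of 1.38. By limma 3 of 7 had an unadjusted p under 0.05, against 24.3% of all genes (summed level 5.44 to 6.67 with PBS and 6.38 to 6.92 with doxorubicin). The PBS comparison of the genotypes at 16 h, where Max was called, called 12.5% of all genes, 6.77% as higher in Top2b-deleted cells. There 3 of 6 fibroblast markers tested were higher (median 1.11, summed level 5.42 to 6.52 against 4.53 to 5.09 without overlap). Of 7 endothelial markers 2 were lower (median -0.86), and 2 of 6 smooth muscle and pericyte markers were lower (median -0.91). Of 7 cardiomyocyte markers 0 were called, with a median of -0.38. By limma 6 of these 7 had an unadjusted p under 0.05, against 28% of all genes. Their summed level was 12.60 to 12.68 in Top2b-deleted PBS and 12.85 to 13.02 in wild-type PBS. At 72 h none of the marker lists had a call between the PBS groups. In bulk RNA, fewer cells of a type and less RNA per cell cannot be told apart, and the part of these markers in the members' differences was not tested.

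Other genes of the wider network, whose proteins bind Max or the related factor Mlx, were looked at beside the members. Of 6 listed, 4 were tested, 1 rose and 1 fell in wild-type cells at 16 h, where 13.7% and 14.1% of all genes did. Mga, a Max-binding repressor, rose by 0.57 ± 0.19 (limma adjusted p = 0.0461), and its difference in Top2b-deleted cells was 0.43 ± 0.19 (adjusted p = 1). Mlxipl, the glucose-responsive partner of Mlx, fell by 1.38 on the log2 scale on its brighter probe (SE 0.20, adjusted p = 0.00101), and its response differed between the genotypes by 1.18 ± 0.29 (adjusted p = 0.0272). Its second probe gave -0.02 ± 0.12 for the wild-type response (adjusted p = 0.924) and 0.05 ± 0.16 for the genotype difference (adjusted p = 0.885). The 2 Mlxipl probes therefore disagree. Mlx (-0.37 ± 0.19, adjusted p = 0.162) and Mlxip (0.67 ± 0.30, adjusted p = 0.121) did not pass. Mxd3 was not well above background on any array, and Mycl1 was so on 1 of 24.

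Genes known as targets that Myc activates were listed by function, 78 in all, of which 73 were tested at 16 h. In wild-type cells 24 rose with doxorubicin and 6 fell, with a median of 0.12 against -0.02 over all genes, of which 13.7% rose and 14.1% fell. Of the 28 genes of the nucleolus and translation, 14 rose, 1 fell and 13 did not pass, with a median of 0.40. Gnl3, a nucleolar GTPase, rose by 1.04 ± 0.14 (limma adjusted p = 0.000554). Nucleolin (Ncl) rose by 0.85 ± 0.15 (adjusted p = 0.00213), and the ribosome biogenesis factors Rrs1 and Wdr74 rose by 0.82 ± 0.14 and 0.76 ± 0.13 (adjusted p = 0.00243 and 0.0022). The 1 that fell was Pes1, a factor of large-subunit maturation, at -1.19. For 7 of the 28 the response was lower in Top2b-deleted cells, Gnl3 (-1.22 ± 0.19, adjusted p = 0.00463) and Ncl (-0.95 ± 0.21, adjusted p = 0.0175) among them, where 5.27% of all genes were.

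The cell cycle targets moved in the same direction in part. Of 16 tested, 6 rose, 1 fell and 9 did not pass, with a median of 0.51, where 13.7% of all genes rose and 14.1% fell. Mcm7 and Mcm4, subunits of the replicative helicase, rose by 1.55 ± 0.13 and 1.18 ± 0.12 (limma adjusted p = 6.77e-05 and 0.000111). Pcna, the sliding clamp of DNA polymerase, rose by 0.90 ± 0.13, and the phosphatase gene Cdc25a by 0.80 ± 0.19 (adjusted p = 0.000811 and 0.0118). The responses of Mcm7 (-1.44 ± 0.19), Mcm4 (-1.02 ± 0.16) and Pcna (-0.96 ± 0.18) were lower in Top2b-deleted cells (adjusted p = 0.00198, 0.00476 and 0.0102).

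The 29 metabolic targets tested were split, with 4 higher, 4 lower and a median of -0.14. These counts were near the 13.7% and 14.1% of all genes that rose and fell. Odc1, the first enzyme of polyamine synthesis, rose by 1.46 ± 0.25 (limma adjusted p = 0.00205) and the amino acid transporter subunit Slc3a2 by 1.40 ± 0.26 (adjusted p = 0.00339). Transferrin receptor (Tfrc) gave -4.87 ± 0.47 (adjusted p = 0.000106) and hexokinase 2 (Hk2) -0.98 ± 0.15 (adjusted p = 0.00112). In Top2b-deleted cells limma called 0 of the 73 activated targets, and 1 had an unadjusted p under 0.05, against 4.22% of all genes.

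Genes known as targets that Myc represses did not fall as a list. Of 18 tested in wild-type cells at 16 h, 8 rose, 2 fell and 8 did not pass, with a median of 0.42. Of all genes, 13.7% rose and 14.1% fell. The cyclin-dependent kinase inhibitors Cdkn1a and Cdkn2b rose by 3.09 ± 0.41 and 2.53 ± 0.31 (limma adjusted p = 0.000613 and 0.000411), and the transcription factors Cebpa and Klf6 by 2.22 ± 0.36 and 1.78 ± 0.29 (adjusted p = 0.00161 and 0.00153). For 5 of 18 the response was lower in Top2b-deleted cells and for 1 it was higher, where 5.27% and 6.17% of all genes were. Of these, Cdkn1a is also induced by p53 after DNA damage. In these wild-type cells the activated and the repressed lists each held more genes that rose than fell.

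**Figure D4:**
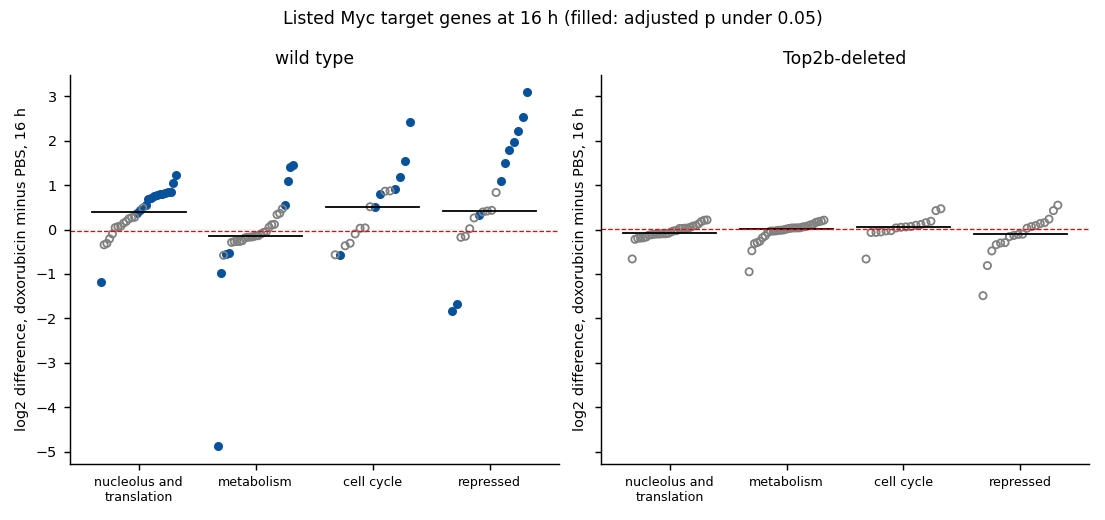
Doxorubicin minus PBS (log2 difference) at 16 h for each listed Myc target, sorted within its list, in wild-type (left) and Top2b-deleted (right) cells. Filled points passed an adjusted p under 0.05, black bars are list medians and the red dashed line is the median of all genes (-0.02 in wild type). The nucleolus and translation, cell cycle and repressed lists have wild-type medians of 0.40, 0.51 and 0.42, the metabolism list -0.14, and no point is filled in Top2b-deleted cells.

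At 72 h in wild-type cells 0 of 74 activated targets were higher and 2 were lower, where 0.946% and 1.75% of all genes were. These were Tfrc (-3.35 ± 0.55, limma adjusted p = 0.0261) and Ccne1, which encodes cyclin E1 (-1.14 ± 0.21, adjusted p = 0.0304). By limma 31 of the 74 had an unadjusted p under 0.05, against 24.3% of all genes, with a median difference of -0.14 over the 74. Cdkn1a was higher by 1.97 ± 0.41 (adjusted p = 0.0411) and Gadd45a, a DNA damage response gene, gave -1.0 ± 0.18 (adjusted p = 0.0307), the 2 of 17 repressed targets called. Mcm7 (0.66 ± 0.16, adjusted p = 0.0553), Pes1 (-0.86 ± 0.21, adjusted p = 0.0553), Fbl (-0.42 ± 0.12, adjusted p = 0.0746) and Hspe1 (-0.68 ± 0.17, adjusted p = 0.0614) came closest among the others of their lists without passing.

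E-boxes were counted in the promoters of the listed targets as well. CACGTG lay in the window of 18 of the 66 activated targets matched (27.3%) and of 3 of 13 repressed targets (23.1%), against 8.09% of the 27025 genes with a window. By function it was in 34.8% of the nucleolus and translation genes, 30.8% of the metabolism genes and 11.8% of the cell cycle genes. These shares describe the lists' letters, and whether genes with an E-box moved differently from those without was not tested.

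Partners that act on Myc protein or on its repressors were followed too. Of 21 cofactor and turnover genes tested at 16 h, 3 rose and 4 fell in wild-type cells, with a median of -0.15, near the 13.7% and 14.1% of all genes that rose and fell. Usp28, a deubiquitinase that stabilises Myc protein, fell by 2.49 on the log2 scale (SE 0.22, limma adjusted p = 7.47e-05), and its response differed between the genotypes by 2.43 ± 0.32 (adjusted p = 0.00198). Gsk3b, a kinase that marks Myc for degradation, gave -0.62 ± 0.16, and Ppp2r5a, a phosphatase regulatory subunit, -0.49 ± 0.12 (adjusted p = 0.0166 and 0.0145). Wdr5, a chromatin cofactor of Myc, rose by 0.46 ± 0.11 (adjusted p = 0.0115). At 72 h none of 21 passed limma's threshold in wild-type cells and 9 had an unadjusted p under 0.05, against 24.3% of all genes. Smarcb1 (-0.57 ± 0.14, adjusted p = 0.0542) and Ppp2r5a (-0.51 ± 0.15, adjusted p = 0.0819) were nearest.

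Among 12 corepressor genes that serve Mxd and Mnt proteins, 0 rose and 3 fell in wild-type cells at 16 h, with a median of -0.32. The number called was near the share of all genes (27.8%). These were the histone deacetylase Hdac1 (-0.53 ± 0.11, limma adjusted p = 0.00461), the histone-binding Rbbp4 (-0.62 ± 0.13, adjusted p = 0.00675) and the nuclear corepressor Ncor1 (-0.55 ± 0.14, adjusted p = 0.0171). Sap18, a subunit of the Sin3 complex, gave -0.47 ± 0.20 (adjusted p = 0.106). At 72 h the 1 called was Smarcc1 (-0.69 ± 0.14, adjusted p = 0.0411), and Sap18 gave -0.46 ± 0.15 (adjusted p = 0.103).

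Genes whose levels most resembled each member were found over the 12 arrays of 16 h among 15960 genes above background on all of them. These correlations describe arrays that share groups and slides, and carry no test. Myc was most like 2610201A13Rik (Pearson r = 0.948), Tmem140 (0.946), Atp6v1h (0.935), the array's unnamed transcript NAP096950-001 (0.932) and Ncl (0.925). Over the 12 arrays of 72 h these values were 0.259 to 0.491 for the first 4 and 0.129 for Ncl. Max was most like Ei24 (0.974) and Mri1 (0.973), Mxd4 like Bet1l (0.99) and Hist1h2ah (0.987), Mnt like TC1642106 (0.937) and Ccl6 (0.897), and Mycn like Nrp2 (0.917) and Plxnd1 (0.906). At 72 h these were -0.297 and 0.744 for Max, 0.67 and 0.29 for Mxd4, -0.114 and -0.531 for Mnt, and 0.719 and 0.565 for Mycn, so that several did not hold their sign. The 5′ probe of Mxd1 was most like the unnamed probe A_55_P2090505 (0.976, and 0.969 at 72 h) and Pard6g (0.97, and 0.989 at 72 h). For this probe r was above 0.9 at both times, and for Myc it was under 0.5 at 72 h.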

How the data were processed

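RNA of isolated cardiomyocytes was measured on 24 arrays. Per the file headers, Agilent Feature Extraction 10.7.3.1 wrote the scanner output the authors deposited, which holds processed, mean and background intensity of each spot on a linear scale and flags. They also deposited a value table, a linear ratio of processed signal to the array median as found from the values. The 75th percentile of the log2 processed signal was subtracted, outlier spots (89 to 277 per array) were left out and spots of a probe averaged. Per array 42.9% to 52.6% of spots were flagged well above background and 0 were saturated. The number of arrays limits the precision. Probes had to be well above background on all 3 arrays of 1 group at a time, and a gene took its brightest probe. The 4 groups of a time were fitted with limma 3.58.1 in R 4.3.3, both times together (8 groups) for the difference between times, with Benjamini-Hochberg adjustment at 0.05. The procedure was tested on simulated data. Bounds compare the measured group's mean with the lowest measurable signal of the other group's arrays, or with the probe's own where higher. Members and lists were chosen with earlier results of these data known. Named genes were all members and wider network genes, from each list the 4 smallest adjusted p in wild type at 16 h and 2 at 72 h, and by correlation 5 genes for Myc and 2 for another member. Pes1 at 16 h was named after its value was seen. Alternatives were normexp (offset 50), quantile normalization, the deposited table, no filter, slide or replicate as a block, a Y-linked covariate, the genotype characteristic as grouping, and leaving out each array. Chosen after seeing the data were slide 1 alone and every probe fitted on its own. Probe positions are in mm9 per the file headers. Gene models of that build were not used here.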

Additional observations from a re-analysis of the deposited data

Results flagged for a closer look

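The doxorubicin responses of 3 genes differed between the genotypes at 16 h by limma's test of the difference itself. It was -3.57 for Myc, -2.14 for Mxd4 and 1.18 for Mlxipl on its brighter probe (adjusted p = 0.0186, 0.0201 and 0.0272). The second Mlxipl probe gave 0.05 and did not pass (limma adjusted p = 0.885 with every probe fitted on its own). At 16 h slide and genotype overlap in large part, and with a slide term the values for Myc and Mxd4 were -2.96 and -2.19 (adjusted p = 0.15 and 0.114).

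Wild-type responses of 2 genes differed between 72 h and 16 h, by -1.98 for Mxd4 and by -1.0 for Max (limma adjusted p = 0.00764 and 0.0219). The Mxd4 value is that of its brighter probe, and the dimmer probe gave -0.47 (adjusted p = 0.498). The 2 times were run on different slides, each with its own PBS arrays.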

How the results depend on the processing

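Across 814 recomputed values of single members, 745 kept their direction and their side of the threshold, 39 lost the call, 11 gained it and 19 changed sign, all of them in 12 of the 50 comparisons of a member and none called by either fit. Changed signs were seen for Myc with the genotype characteristic (0.413 for the Top2b-deleted response at 16 h and 0.395 for the difference between times) and for Mxd1 with it (0.064, difference between times). They were seen for Mnt with the slide block (0.061, Top2b-deleted response at 16 h), the Y-linked covariate (-0.083, PBS comparison at 16 h) and slide 1 alone (-0.011, wild-type response at 72 h), and for Max with quantile normalization (-0.029, difference of responses at 72 h). With the genotype characteristic as grouping the wild-type 16 h responses lost their calls: Myc 1.31, Max 0.66, Mxd4 1.64 and Mycn -3.53 (limma adjusted p 0.332 to 0.545). That grouping called 0 genes for the wild-type response, for the PBS genotype comparison, for the difference of responses at 16 h and for the difference between times, and 1 gene for the Top2b-deleted response, against 5206, 2335, 2144, 1122 and 0 with the titles. Normexp moved Mycn from -3.53 to -0.79 in wild type (adjusted p = 0.00976).

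For counts of called genes at 16 h, no filter gave 1275 for the PBS genotype comparison and 972 for the difference of responses. The slide block gave 1220, 373 and, for the Top2b-deleted response, 2. The Y-linked covariate gave 1 for the latter. Slide 1 alone gave 3312 for the wild-type response and 799 for the PBS comparison. At 72 h the main counts were 530 (wild-type response), 423 (PBS comparison), 0 and 0. The wild-type response had 960 with the deposited table, 22 with no filter, 2641 with the slide block, 3289 with the replicate block and 22 with the Y-linked covariate. The PBS comparison had 277 with no filter, 795 with the slide block, 909 with the replicate block and 673 on slide 1. The Top2b-deleted response had 3 on slide 1, and the difference of responses 1 with quantile normalization. The difference between times had 607 with no filter and 1910 with the replicate block. The cause of these shifts was not tested.

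Leaving out 1 array at a time gave 3634 to 6726 genes for the wild-type response at 16 h, 958 to 1368 for the PBS comparison, 999 to 4795 for the difference of responses and 0 to 7 for the Top2b-deleted response. At 72 h it gave 1 to 1515, 209 to 701, 0 to 7 and 0 to 2, and 608 to 2350 for the difference between times. Members whose sign changed then were Mnt (-0.023 to 0.317 in PBS at 16 h, -0.39 to 0.051 in PBS at 72 h and -0.178 to 0.275 for the wild-type response at 72 h), Max (-0.301 to 0.1 and -0.192 to 0.035 for the wild-type and Top2b-deleted responses at 72 h and -0.18 to 0.22 for their difference), Myc (-0.073 to 0.634) and Mxd4 (-0.035 to 0.211) for the Top2b-deleted response at 72 h, and Mxd1 (-0.504 to 0.022) for the difference between times.

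Arrays of the same replicate number correlated at -0.124 to 0.286 in their deviations from the group means at 16 h (median 0.0606, against -0.0294 for different numbers) and 0.00164 to 0.729 at 72 h (median 0.353, against -0.242). At neither time did every pair exceed 0.1, the level required to take the numbers as pairs. At 72 h replicate 4 is also the second slide. With the replicate block Max in PBS was called at 72 h (-0.72, adjusted p = 0.0453) and not at 16 h (-0.55, adjusted p = 0.0619). The block changed the call of no other member tested within a time. Mycn and Mxi1 are limited by signal over background.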
